A study of Mus musculus with 4 samples.

Results

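The genes described here are 5 that encode subunits of the phagocyte NADPH oxidase (Cyba, Cybb, Ncf1, Ncf4 and Rac2) and 2 that encode superoxide dismutases (Sod1 and Sod2). They were taken as every probe whose gene name in the scanner files was one of these symbols, which gave 8 probes for 7 of the 36086 genes or transcript names on the array. Cyba had 2 probes, each other gene had 1, and the Rac2 probe was printed at 10 spots. All 7 genes were well above background on all 4 arrays and none of their spots was saturated.

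The phagocyte NADPH oxidase is an enzyme complex that macrophages and neutrophils assemble at a membrane to make superoxide from oxygen. Its membrane core is cytochrome b558, formed by gp91phox, the catalytic chain encoded by Cybb, and p22phox, the stabilising chain encoded by Cyba. Cytosolic subunits encoded by Ncf1 (p47phox, the organiser) and Ncf4 (p40phox, which binds phosphoinositide) join it on stimulation together with a Rac GTPase. Superoxide dismutases convert superoxide to hydrogen peroxide, Sod1 in the cytosol with copper and zinc and Sod2 in the mitochondrial matrix with manganese.

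The study used RAW264.7, an established mouse macrophage-like line, and measured total RNA on 4 one-colour Agilent arrays, 1 per group. The groups were the Linc-AAM knockdown line with AEPS, the knockdown line in DMEM, the scramble line with AEPS and the scramble line in DMEM. Linc-AAM is a long intergenic non-coding RNA, and AEPS is a polysaccharide from Actinidia eriantha roots, given at 50 µg/mL for 4 h. Both lines were blasticidin-selected bulk cultures carrying a stably integrated vector (pcDNA6.2-GW/EmGFP-miR) for an artificial microRNA, so the scramble cells carry a vector and a selection as well. Nothing in the labels says that a culture was repeated. The p-values below come from an additive limma fit of line and treatment over the 4 arrays. Its residual is the difference in AEPS response between the lines, moderated by the spread over all genes. A response that differs between lines therefore counts as error, and the spread between repeated cultures is not measured. Between 53.4% and 58.0% of probes were well above background on an array.

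The deposited files conflict on the lines. Over 55657 probes, each column of the authors' deposited value table ranked the probes exactly as the scanner array of the other line in the same medium did (Spearman rho 1.0), and less closely as its own (0.96898 to 0.969). The arrays are therefore called by the labels of the scanner files, as the arrays labelled knockdown or scramble, and the line estimates of 6 of the 7 members turned their sign when the value table was used as labelled, the exception being Cyba, whose estimate was near 0. The AEPS comparisons over both lines do not depend on which line is which. The level of Linc-AAM itself was not analysed here.

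The 8 macrophage markers examined, among them Adgre1 and Csf1r, were well above background on all 4 arrays. Their summed relative signal (spot intensity over the array's 75th percentile) was 758 with AEPS and 712 in DMEM on the arrays labelled knockdown, and 809 with AEPS and 728 in DMEM on those labelled scramble. Without Cd14, the sum of the other 7 was lower with AEPS, at 468 against 603 in DMEM on the arrays labelled knockdown and 499 against 624 on those labelled scramble. Most of that fall lay in Csf1r, at 359 against 483 and 329 against 448. A sum over different probes is weighted by their brightness and does not measure the content of a cell type. Adgre1, Itgam and Ptprc were higher with AEPS in both lines, Lyz2 and Fcgr1 were lower, and Cd68 differed in direction between the lines. For the line, limma called none of the 8. At an unadjusted limma p under 0.05, 3 were lower on the arrays labelled knockdown and 0 higher, against 6.99% and 7.56% of all genes. These were Fcgr1 (line effect -1.573), Lyz2 (-0.837) and Adgre1 (-0.361). Of 17 markers of neutrophils, lymphocytes, fibroblasts and epithelium on the array, 10 were well above background on no array and 5 on all 4. The summed relative signal of the 17 lay between 4.09 and 5.39 and was higher with AEPS in both lines. Most of it lay in Elane (2.04 to 2.74) and Cd3e (1.45 to 2.03), neither of them called by limma. Of the 6 tested, limma called 2, Col1a1 and Col1a2, higher with AEPS, against 7.4% of all genes. The part of these markers in the results was not tested. In bulk RNA, fewer cells that express a gene and less of its RNA per cell cannot be told apart.

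The proximal promoters of the 2 members that rose with AEPS are shown first, because they can be set beside each other and beside the values that follow. RefSeq's GRCm38.p6 promoter table, which runs from 250 bases before to 50 after each start site, held an entry for 5 of the 7 members (Cyba, Cybb, Ncf1, Sod1 and Sod2). Capitals mark matches, on either strand, to an NF-kB motif, to the interferon-gamma activated sequence (GAS, TTCNNNGAA) or to the core bound by PU.1, a myeloid transcription factor (GAGGAA). The Cybb window lies at chrX:9469275-9469574 on the minus strand and the Sod2 window at chr17:13007589-13007888 on the plus strand, both written here in the direction of the gene.
Cybb: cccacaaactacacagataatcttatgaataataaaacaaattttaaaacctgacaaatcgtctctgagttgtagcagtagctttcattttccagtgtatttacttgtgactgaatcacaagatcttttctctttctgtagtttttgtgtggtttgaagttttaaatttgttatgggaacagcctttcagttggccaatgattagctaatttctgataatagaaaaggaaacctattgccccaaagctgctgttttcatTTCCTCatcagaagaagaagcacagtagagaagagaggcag
Sod2: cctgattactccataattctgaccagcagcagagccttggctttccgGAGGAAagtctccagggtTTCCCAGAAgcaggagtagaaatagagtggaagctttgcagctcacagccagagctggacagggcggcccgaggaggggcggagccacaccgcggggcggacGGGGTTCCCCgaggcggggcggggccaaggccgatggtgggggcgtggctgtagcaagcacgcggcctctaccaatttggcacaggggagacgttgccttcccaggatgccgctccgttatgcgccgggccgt

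The Cybb window held 1 match, to the PU.1 core, on the opposite strand 10 to 15 bases after the start site. The Sod2 window held a match to NF-kB 83 to 74 bases before the start site, one to GAS 185 to 177 bases before it and one to the PU.1 core 203 to 198 bases before it, with no overlap between them. Among 32851 promoters of the same length, 8.46% held the NF-kB motif, 8.3% held GAS and 28.3% held the PU.1 core. The Cybb window was poorer in G and C, at 35.3%, than that of Sod2, at 64.3%. The Ncf1 window held 1 GAS match, 88 to 80 bases before the start site, and those of Cyba and Sod1 held no match to the 3 motifs. A match is a description of letters, not a measured site.

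Signals are given as a relative signal, which is the spot intensity divided by the 75th percentile of its own array, and differences are given on the log2 scale. The relative signal of a probe can be compared between arrays but not with that of another probe. For probes printed at 10 spots, the log2 values of a probe's spots had an SD whose median was 0.037 to 0.046 per array. That figure holds the error of printing and scanning within an array and not that of repeated cultures.

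**Figure D1:**
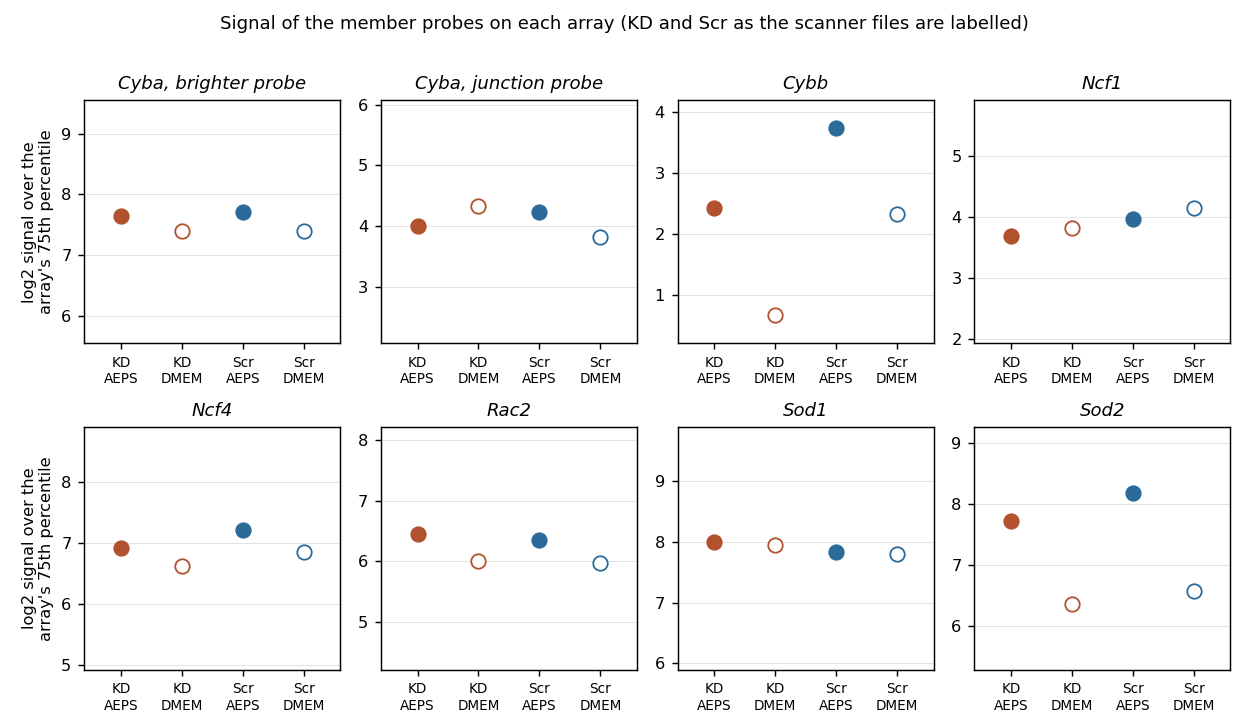
Log2 relative signal of each of the 8 probes on the 4 arrays (filled points, AEPS; open points, DMEM; orange, labelled knockdown; blue, labelled scramble), with each panel spanning the same log2 range. Cybb and Sod2 lie higher with AEPS in both lines and Cybb lies lowest on the array labelled knockdown in DMEM, while the other probes move within 0.6 on the log2 scale.

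Cybb, the catalytic chain, was higher with AEPS in both lines. Its relative signal was 5.36 with AEPS and 1.58 in DMEM on the arrays labelled knockdown, and 13.3 with AEPS and 5.01 in DMEM on those labelled scramble. The 2 AEPS arrays thus lay above the DMEM array of their own line, but the AEPS array labelled knockdown was close to the DMEM array labelled scramble. The AEPS difference was 1.76 on the log2 scale (3.39-fold) on the arrays labelled knockdown and 1.41 (2.66-fold) on those labelled scramble. In an additive limma fit of line and treatment over 22341 genes, the AEPS effect on Cybb was 1.58 ± 0.144 (SE, 4 arrays; 3.0-fold; Benjamini-Hochberg adjusted p = 0.0149). The call was lost when dim genes were not filtered out before the limma fit (adjusted p = 0.0779), and the adjusted p ranged from 4.48e-05 to 0.0779 over 10 alternatives. Of all genes tested, 3.29% had an AEPS effect at least as large in the same direction. The Cybb probe lies at chrX:9013216-9013275 on the minus strand of mm9.

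Sod2, the mitochondrial enzyme, also rose with AEPS. On the same scale Sod2 was at 210 with AEPS and 82.2 in DMEM on the arrays labelled knockdown, and 291 with AEPS and 95.1 in DMEM on those labelled scramble. Both AEPS arrays lay above both DMEM arrays. The AEPS difference was 1.35 (2.56-fold) on the arrays labelled knockdown and 1.61 (3.06-fold) on those labelled scramble. By limma the AEPS effect on Sod2 was 1.48 ± 0.131 (SE, 4 arrays; 2.8-fold; adjusted p = 0.0141), and 3.54% of genes had one at least as large in the same direction. This call too was lost in limma without the filter on dim genes (adjusted p = 0.0788). The probe lies at chr17:13208074-13208133 on the plus strand of mm9.

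Cybb and Sod2 were the 2 of 7 members that limma called higher with AEPS, against 7.4% of all genes tested. No member was called lower, against 7.29% of all genes, and 0 members were lower at an unadjusted limma p under 0.05. At that unadjusted level 4 members were higher, Ncf4 and Rac2 beside Cybb and Sod2, against 17.5% of all genes higher and 16.4% lower. The median AEPS effect of the members was 0.333, against 0.069 over all genes, and 6 of the 7 estimates lay above 0. Under quantile normalization that median was 0.101, against -0.016 over all genes, with 5 of 7 above 0, while Cybb (1.53) and Sod2 (1.253) were still called by limma. At 2-fold or more, the same 2 members were higher on the arrays labelled knockdown, where 4.64% of 22326 genes were higher and 3.48% lower. They were also the 2 that were higher on the arrays labelled scramble, where 6.7% of 23519 genes were higher and 5.22% lower. No member was at least 2-fold lower in either line. The 2 lines do not share arrays in these comparisons, but each line has a single pair of arrays.

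**Figure D2:**
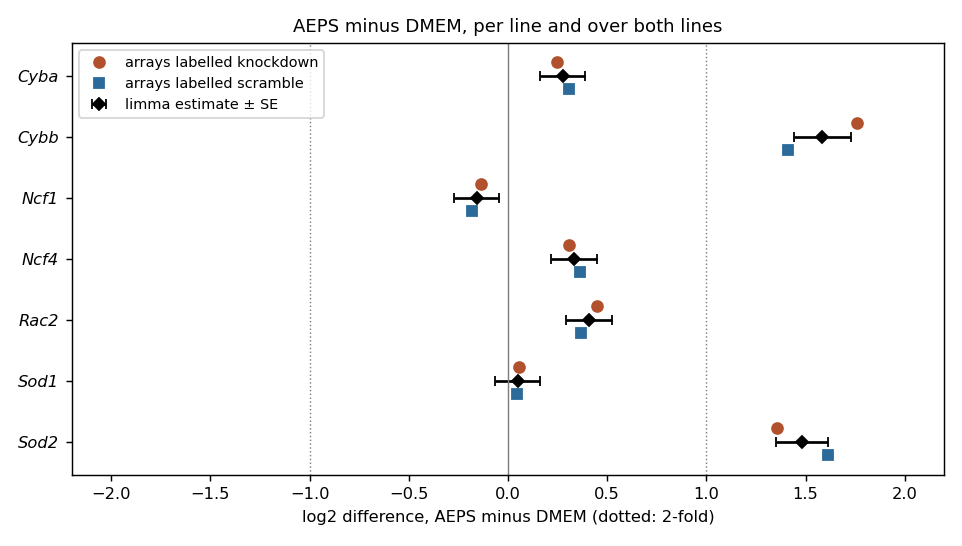
Log2 difference, AEPS minus DMEM, for each member on the arrays labelled knockdown (circles) and scramble (squares), with the limma estimate over both lines and its SE (diamonds); dotted lines mark 2-fold. Cybb and Sod2 lie beyond 2-fold in both lines, and the other 5 members lie between -0.183 and 0.45 by the brightest probe of each. The second Cyba probe, at -0.32 on the arrays labelled knockdown, is not drawn.

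The chain that partners Cybb in the membrane was measured by 2 probes that did not move alike. The brighter Cyba probe, at chr8:124948726-124948785 on the minus strand of mm9, had a relative signal of 200 with AEPS and 168 in DMEM on the arrays labelled knockdown, and 208 with AEPS and 169 in DMEM on those labelled scramble. By limma its AEPS effect was 0.28 ± 0.114 (SE, 4 arrays; adjusted p = 0.19), and it was 0.038 under quantile normalization (adjusted p = 0.837) and 0.040 in the authors' deposited value table. For every member, the AEPS estimate from the value table nearly equalled that under quantile normalization, so these are not separate checks. The second Cyba probe had a relative signal of 16.0 with AEPS and 20.0 in DMEM on the arrays labelled knockdown, and 18.7 with AEPS and 14.1 in DMEM on those labelled scramble. It was therefore lower with AEPS in the first line (log2 difference -0.32) and higher in the second (0.41). That second probe is shown because its 60 bases map over 269 bases of the minus strand, chr8:124950893-124951161 in mm9, and so cross a splice junction. Read in 3 frames it held 0, 0 and 1 stop codons.
Cyba junction probe: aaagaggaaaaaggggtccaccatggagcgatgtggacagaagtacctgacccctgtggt

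The organiser Ncf1 was the member whose estimate lay below 0 with AEPS. Ncf1 had a relative signal of 12.9 with AEPS and 14.2 in DMEM on the arrays labelled knockdown, and 15.7 with AEPS and 17.8 in DMEM on those labelled scramble. The AEPS array was the lower one in each line (log2 differences of -0.134 and -0.183), and the limma effect was -0.16 ± 0.114 (SE, 4 arrays; adjusted p = 0.387). The Ncf1 probe lies at chr5:134696380-134696439 on the minus strand of mm9. Ncf1 has closely related pseudogene copies in the human genome, and whether this mouse probe reads other sequence was not tested.

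Ncf4, the phosphoinositide-binding subunit, had a relative signal of 121 with AEPS and 98.3 in DMEM on the arrays labelled knockdown, and 148 with AEPS and 115 in DMEM on those labelled scramble. The AEPS array was the higher one in each line, but the AEPS array labelled knockdown and the DMEM array labelled scramble were close. By limma the AEPS effect was 0.33 ± 0.114 (SE, 4 arrays; adjusted p = 0.14), and it was 0.101 under quantile normalization (adjusted p = 0.575) and 0.100 in the authors' deposited value table. The probe lies at chr15:78092903-78092962 on the plus strand of mm9.

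Rac2, the Rac GTPase of blood cells, is the member with a spot error of its own. Its relative signal was 87.7 with AEPS and 64.2 in DMEM on the arrays labelled knockdown, and 81.2 with AEPS and 62.9 in DMEM on those labelled scramble. Both AEPS arrays lay above both DMEM arrays, and the SD between spots was 0.015 to 0.034 on the log2 scale within an array, after 2 of the 10 spots were left out for outlier flags on the AEPS array labelled knockdown. The AEPS differences were 0.45 on the arrays labelled knockdown and 0.37 on those labelled scramble, and the spot error says nothing of how far repeated cultures would differ. The limma effect was 0.41 ± 0.115 (SE, 4 arrays) with an adjusted p of 0.0981, and limma called it after normexp background correction (adjusted p = 0.0321). Under quantile normalization the effect was 0.203 (limma adjusted p = 0.289), and in the authors' deposited value table it was 0.202 (0.29). The probe lies at chr15:78391452-78391511 on the minus strand of mm9.

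Sod1, the cytosolic enzyme, had the smallest AEPS estimate of the members. Sod1 had a relative signal of 255 with AEPS and 246 in DMEM on the arrays labelled knockdown, and 229 with AEPS and 222 in DMEM on those labelled scramble. The difference was 0.05 in each line, and by limma the effect was 0.05 ± 0.113 (SE, 4 arrays; adjusted p = 0.78). Its direction turned under quantile normalization, where it was -0.150, and in the authors' deposited value table, where it was -0.149. The probe lies at chr16:90226509-90226568 on the plus strand of mm9.

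The lines differed most in Cybb among the members. On the arrays labelled knockdown the relative signal was 2.49-fold lower with AEPS, at 5.36 against 13.3 on the array labelled scramble, and 3.17-fold lower in DMEM, at 1.58 against 5.01. The log2 differences, knockdown minus scramble as the scanner files are labelled, were -1.314 with AEPS and -1.665 in DMEM. By limma the line effect was -1.49 ± 0.144 (SE, 4 arrays) with an adjusted p of 0.0659, which misses the threshold of 0.05. Over 10 alternatives its adjusted p in limma ranged from 0.00037 to 0.304, and it was called with normexp background correction (0.00194), with genes well above background on all 4 arrays (0.0229) and with an intensity trend in the variance prior (0.00037). Under the value table's own labels the estimate was 1.430. Of all genes tested, 0.882% had a line effect at least as large in the same direction.

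No member was called by limma for the line, higher (against 0.398% of all genes) or lower (against 0.34%). At an unadjusted limma p under 0.05, 1 member was lower, Cybb, and 0 were higher, against 6.99% of all genes lower and 7.56% higher. At 2-fold or more, Cybb was the 1 member lower on the array labelled knockdown under AEPS, where 2.68% of 22789 genes were lower and 1.85% higher. Cybb was again the 1 member lower in DMEM, where 1.51% of 23059 genes were lower and 2.36% higher. No member was at least 2-fold higher in either medium. The median line effect of the members was -0.26, against -0.008 over all genes, and 5 of the 7 estimates lay below 0. These were Cybb, Sod2 at -0.34 (adjusted p = 0.377 by limma), Ncf1 at -0.30 (0.368), Ncf4 at -0.26 (0.419) and Cyba at -0.03 (0.925). Rac2 at 0.07 (adjusted p = 0.824 by limma) and Sod1 at 0.15 (0.602) lay above 0. The sign of the Cyba estimate turned under quantile normalization, where it was 0.012, and with the mean of its probes, where it was 0.056.

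**Figure D3:**
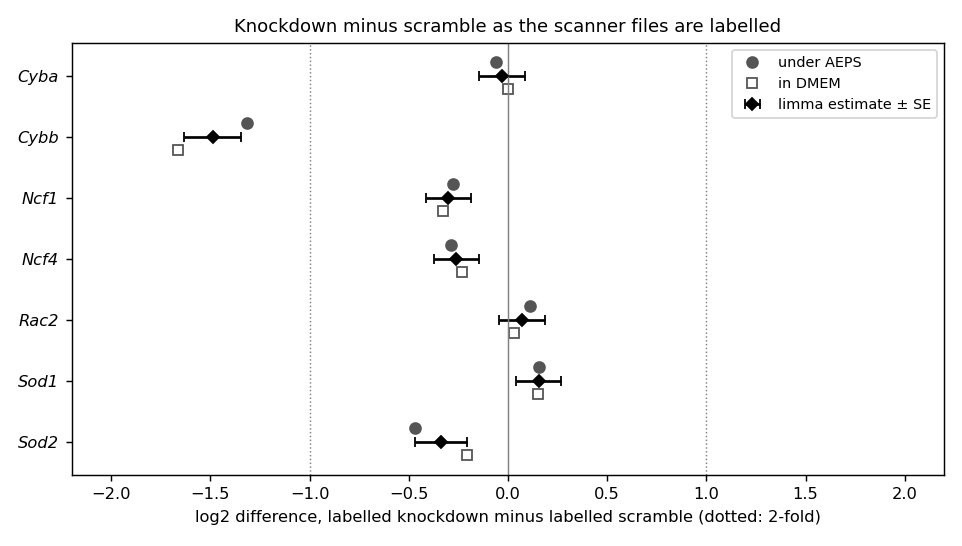
Log2 difference, labelled knockdown minus labelled scramble, for each member under AEPS (circles) and in DMEM (open squares), with the limma estimate over both media and its SE (diamonds); dotted lines mark 2-fold. Cybb lies beyond 2-fold lower in both media, and the sign of every member but Cyba turned in the limma estimate under the value table's labels.

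The AEPS response did not differ by 1 or more on the log2 scale between the lines in any member. Of the 20339 genes that passed the background threshold on each of the 4 arrays, the response of the arrays labelled knockdown was larger by at least that much in 0.526% and smaller in 1.63%. The difference in response, labelled knockdown minus labelled scramble, was 0.35 for Cybb and -0.26 for Sod2, and between -0.059 and 0.082 for the other 5 members by their brighter probe. With 1 array per group, an interaction leaves no residual degree of freedom, so these differences have no test.

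Among the genes whose 4-array profile was nearest to that of Cybb, by root mean square distance between centred log2 values over 12192 genes, were Slc2a6 (0.139), a hexose transporter, Rnf224 (0.262) and Parp9 (0.301), an interferon-inducible member of the PARP family. Only Slc2a6 lay within 0.2 of Cybb. Its AEPS differences were 1.42 on the arrays labelled knockdown and 1.52 on those labelled scramble, and its line differences were -1.427 with AEPS and -1.325 in DMEM. Sod2 had 92 genes within 0.2, the nearest being Slc39a14 (0.045), a zinc and iron transporter, Rapgef2 (0.057) and Tagap (0.061). Slc39a14 differed with AEPS by 1.301 on the arrays labelled knockdown and by 1.498 on those labelled scramble. With 4 arrays, such nearness is a description only.

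Of 11 other oxidase subunits and homologues examined, 6 passed the filter on dim genes. The other 5 included Nox3, Nox4, Duox1 and Duox2, which were well above background on no array. Limma called 2 of the 6 higher with AEPS and none lower, against 7.4% and 7.29% of all genes. For the line it called 1 higher and none lower, against 0.398% and 0.34%. At an unadjusted limma p under 0.05 the counts were 3 and 2 with AEPS (17.5% and 16.4% of all genes), and 1 and 0 for the line (7.56% and 6.99%). Nox1, a homologue of Cybb best known from colon epithelium, had a relative signal of 1.16 with AEPS and 0.332 in DMEM on the arrays labelled knockdown, and 0.421 with AEPS and 0.105 in DMEM on those labelled scramble. It rose with AEPS by 1.90 ± 0.125 (SE, 4 arrays; limma adjusted p = 0.00955) and was higher on the arrays labelled knockdown by 1.56 ± 0.125 (adjusted p = 0.044). Its line difference thus ran opposite to that of Cybb. Rac3, a Rac GTPase, rose by 0.89 ± 0.122 (SE, 4 arrays; limma adjusted p = 0.028).

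Of 18 regulators of the oxidase, 16 were tested, and limma called 3 higher and 2 lower with AEPS, against 7.4% and 7.29% of all genes. At an unadjusted limma p under 0.05, 3 were higher and 3 lower (18.8% each). That is near the 17.5% and 16.4% of all genes. Prkcd, a protein kinase C that phosphorylates p47phox, had a relative signal of 21.1 with AEPS and 7.92 in DMEM on the arrays labelled knockdown, and 25.8 with AEPS and 7.21 in DMEM on those labelled scramble. Its limma effect was 1.62 ± 0.157 (SE, 4 arrays; adjusted p = 0.0165). Hvcn1, the proton channel that balances the charge moved by the oxidase, rose by 1.13 ± 0.125 (SE, 4 arrays; limma adjusted p = 0.0201), and S100a8, a calcium-binding protein, rose by 1.04 ± 0.126 (adjusted p = 0.0229). S100a8 was dim, at 0.253 with AEPS and 0.115 in DMEM on the arrays labelled knockdown, and 0.211 and 0.111 on those labelled scramble. S100a9, also in the list, was well above background on no array.

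The guanine nucleotide exchange factor Vav1, which activates Rac, fell with AEPS. Its relative signal was 19.0 with AEPS and 42.7 in DMEM on the arrays labelled knockdown, and 21.6 with AEPS and 46.0 in DMEM on those labelled scramble. The limma effect was -1.13 ± 0.115 (SE, 4 arrays; adjusted p = 0.0175). Pak1, a kinase that acts downstream of Rac, had an effect of -0.89 ± 0.147 (SE, 4 arrays; limma adjusted p = 0.0382). For the line, limma called 1 regulator higher and none lower (3 and 1 at an unadjusted p under 0.05). Over all genes the shares were 0.398% and 0.34%, and 7.56% and 6.99% unadjusted. The regulator called was Prkca, another protein kinase C, which was higher on the arrays labelled knockdown by 2.375 ± 0.115 (SE, 4 arrays; adjusted p = 0.0232). Tiam1, an exchange factor for Rac, was at least 2-fold higher on the array labelled knockdown in DMEM (log2 difference 1.04) and differed by 0.755 under AEPS.

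Of 4 transcription factors known to act on the Cybb promoter, all were tested and limma called none higher and 1 lower with AEPS (2 and 1 at an unadjusted p under 0.05). The shares of all genes were 7.4% and 7.29%, and 17.5% and 16.4% unadjusted. The gene called was Cebpe, a factor of myeloid maturation, at -0.92 ± 0.154 (SE, 4 arrays; adjusted p = 0.0395). Irf1, an interferon-responsive factor, had a relative signal of 5.06 with AEPS and 3.44 in DMEM on the arrays labelled knockdown, and 21.6 with AEPS and 4.22 in DMEM on those labelled scramble. The AEPS array labelled scramble stood above the other 3. Irf1 was thus the 1 of 4 factors that was at least 2-fold lower on the array labelled knockdown under AEPS (log2 difference -2.092). Of 22789 genes, 2.68% were at least 2-fold lower in that comparison. In DMEM, Irf1 was not 2-fold lower (-0.297). Irf8, another of the 4, fell just short of 2-fold lower on the array labelled knockdown in DMEM (log2 difference -0.99). Under AEPS it differed by -0.248. In DMEM, Spi1 differed by 0.309 and Cebpe by -0.069. Cybb was lower on the array labelled knockdown in both media, and the part of these factors in that was not tested.

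Of 13 other genes that remove superoxide or peroxide, 12 were tested. Limma called 1 higher with AEPS, Prdx5, a peroxiredoxin found in mitochondria and elsewhere, and none lower (3 and 1 at an unadjusted p under 0.05). Among all genes 7.4% were called higher and 7.29% lower (17.5% and 16.4% unadjusted). Prdx5 had a relative signal of 30.6 with AEPS and 16.6 in DMEM on the arrays labelled knockdown, and 44.1 with AEPS and 18.5 in DMEM on those labelled scramble. Its effect was 1.07 ± 0.148 (SE, 4 arrays; limma adjusted p = 0.028). The median AEPS effect of the 12 was 0.029, against 0.069 over all genes. Sod3, the extracellular superoxide dismutase, was well above background on no array.

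**Figure D4:**
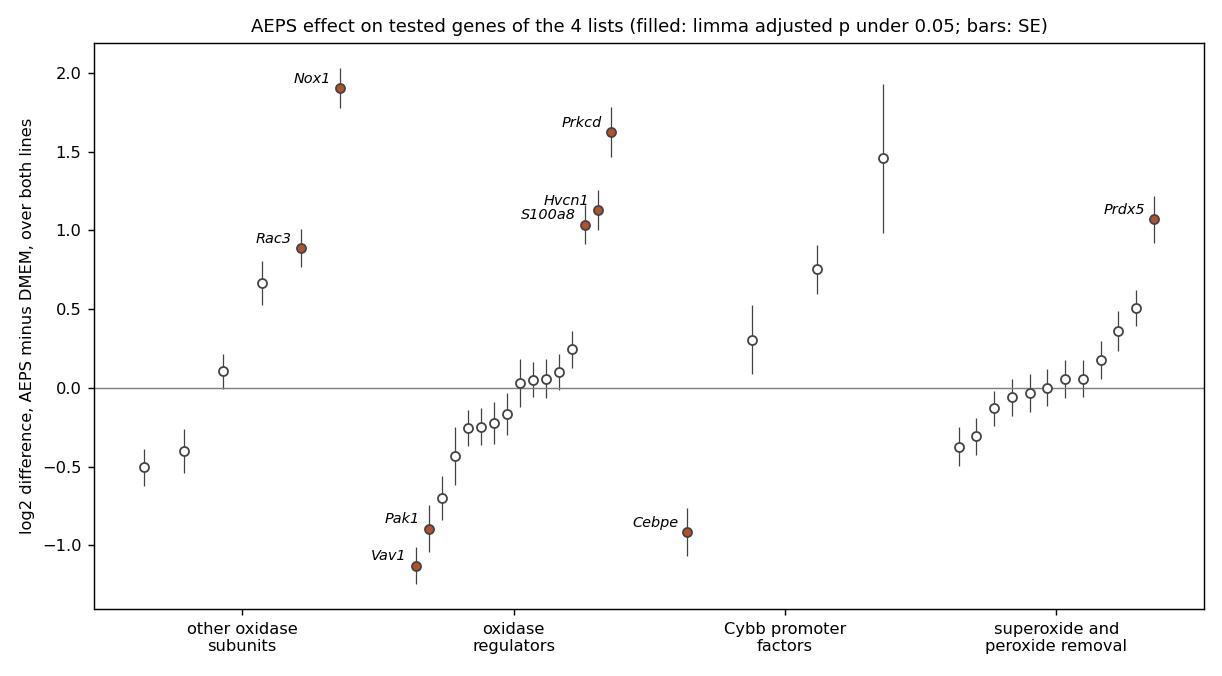
AEPS effect by limma over both lines (log2, AEPS minus DMEM, bars SE) for the tested genes of 4 lists, sorted within each list; filled and named points passed an adjusted p of 0.05. Nox1 and Prkcd lie highest among the called genes, Vav1 lowest, and 1 of 12 genes of superoxide and peroxide removal was called.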

How the data were processed

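The RNA came from 4 cultures of RAW264.7 cells, each hybridised to one of 4 Agilent 8 × 60k mouse arrays in 1 colour, 1 array per group. Per the file headers, the authors read the scans with Agilent Feature Extraction 10.7.1.1, and the deposited scanner files hold spot intensity on a linear scale (the processed signal, background-subtracted). The deposited value table holds log2 values with a median of 4.7 in every column. No source used here gives its normalization. Its AEPS estimates nearly equalled those after quantile normalization of the processed signal (1.531 and 1.53 for Cybb, 1.252 and 1.253 for Sod2). The value table ranks probes within an array as the processed signal does, and its line labels conflict with those of the scanner files. The groups were taken from the labels, and lines were named as the scanner files label them. Probe coordinates are those of the scanner files (mm9). Exon or UTR was not assigned, as no mm9 annotation was used here.

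Each of the 62976 spots per array was a control or one of 59305 others, covering 55681 probes. Values were log2 of the processed signal minus the array's 75th percentile (439.1 to 587.7 intensity units) over non-control spots. Spots with outlier flags (164 to 231 per array) were left out, spots of a probe averaged, and a gene took its brightest probe. Genes well above background on at least 2 arrays (22341) were fitted in R 4.3.3 with limma 3.58.1 as line plus treatment (1 residual degree of freedom, prior 2.82, prior SD 0.132), with Benjamini-Hochberg adjustment over all of them and a threshold of 0.05. Single pairs of arrays have no test, and a gene was called there at 2-fold. The number of arrays limits the precision. The fit was tested on simulated data that followed its own model, which cannot show whether the p-values hold for these arrays.

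All members were named, and from each list of related genes those called by limma or at least 2-fold in a pair of arrays, at most 5 per list and comparison, and for members spanning 1 or more on the log2 scale the 3 genes nearest in profile. Irf8 and Spi1 met neither condition for list genes and were given values as well. Some genes of the lists are not reported here. Members and lists were chosen with earlier results of these data known. Alternatives covered background correction, scaling, the value table, several probes per gene, outlier flags, the filter on dim genes and the variance prior. Other steps used Python 3.11.15, numpy 2.4.6 and pandas 2.3.3, and promoter sequences came from RefSeq (GRCm38.p6).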

Additional observations from a re-analysis of the deposited data

Results flagged for a closer look

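The second Cyba probe, the one that crosses a splice junction, was noted because its signal moved in opposite directions in the 2 lines. Its AEPS difference was -0.32 on the log2 scale on the arrays labelled knockdown and 0.41 on those labelled scramble, and its line difference was -0.22 under AEPS and 0.51 in DMEM. The brighter Cyba probe moved one way in both lines. Prkcd had a line difference of -0.29 under AEPS and 0.135 in DMEM. Each of these differences between lines or media rests on 1 array per group and was not tested.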

How the results depend on the processing

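The AEPS estimates of Cybb (1.505 to 1.584) and Sod2 (1.252 to 1.484) kept their direction under all 10 alternatives. Changing the filter, the outlier flags, the probes per gene or the variance prior left both estimates as they were. Only background correction, scaling and the value table moved them, and exchanging line labels cannot move an AEPS estimate over both lines. Limma called 2 members with AEPS, against 0 without a filter on dim genes and 5 with an intensity trend, which added Cyba (adjusted p = 0.00825), Ncf4 (0.00562) and Rac2 (0.00382). For the line it called 0, against 1 with normexp, 1 with genes well above background on all 4 arrays and 2 with the trend (Cybb, 0.00037, and Sod2, 0.0358). The shares of all genes called are given above for the main fit only. Counts of members called under an alternative therefore cannot be set against all genes. The AEPS estimate of Sod1 turned to -0.150 with quantile normalization and -0.149 with the value table, under either labelling. The line estimate of Cyba turned to 0.012 with quantile normalization, 0.056 with the mean of its probes and 0.011 with the value table and its line labels exchanged, an alternative chosen after seeing the data. Under the value table's own labels the line estimates turned to 1.430 (Cybb), 0.227 (Ncf1), 0.206 (Ncf4), -0.140 (Rac2), -0.182 (Sod1) and 0.303 (Sod2), and Cybb differed by 1.227 under AEPS and 1.634 in DMEM. The causes were not tested, other than the opposite labels. Of 420 estimates of single members under an alternative, 396 kept their call and, where tested or at least 2-fold, their direction, 14 turned, 8 became calls and 2 lost one. Many of the 420 came from alternatives that leave a member's value unchanged, so the tally overstates how widely the values were varied. Leaving out an array was not run, since it leaves 0 residual degrees of freedom. No paired analysis was possible because each group has 1 array, beyond the line term of the limma fit, which already sets AEPS against DMEM within each line. Cybb had 694.4 intensity units on its lowest array, the one labelled knockdown in DMEM.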

Other observations

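Of the macrophage markers, Cd14, the lipopolysaccharide co-receptor, rose with AEPS by 1.498 ± 0.121 (SE, 4 arrays; limma adjusted p = 0.0127). Its relative signal was 291 with AEPS and 109 in DMEM on the arrays labelled knockdown, and 310 with AEPS and 104 in DMEM on those labelled scramble. Fcgr1, a high-affinity immunoglobulin receptor, was 0.341 with AEPS and 1.29 in DMEM on the arrays labelled knockdown, and 1.90 with AEPS and 2.06 in DMEM on those labelled scramble. Its AEPS difference was -1.92 on the arrays labelled knockdown and -0.11 on those labelled scramble, a contrast that was not tested.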
